A study of Mus musculus with 9 samples.

Results

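Proteoglycans and matrix glycoproteins that fibroblasts secrete around collagen and elastin were followed through 9 RNA-seq libraries of sorted mouse lung fibroblasts. The 10 genes, chosen by name for their function, were Dcn, Bgn and Lum (small leucine-rich proteoglycans), Eln, Fbln1, Mfap4 and Mfap5 (elastic fibers and microfibrils), and Fn1, Sparc and Mgp (adhesive and matricellular glycoproteins). All 10 are among the 55302 gene symbols of the deposited tables, and 8 were high enough to test. The treated libraries came from 5 mice that received doxorubicin (DOX), a DNA-damaging anthracycline, and the controls from 4 mice that received PBS, which the labels also write as saline. Female mice aged 8 weeks were injected orthotopically with mammary tumor cells, the tumor was resected after 2 weeks, and the first of 2 intraperitoneal doses of 5 mg/kg followed 4 days later. The second dose came 5 days after the first, and lungs at the early stage of metastasis were taken 24 h after the last dose. These details come from the methods section of the study. Mice of both groups therefore carried the resected tumor and the surgery. Tumor cells were 4T1 in BALB/c mice or EO771 in C57BL/6 mice, and the sources used here do not tell which model gave the libraries. The labels describe the sorted cells as CD45- EpCAM- PDGFRa+, and the methods add CD31-, so the values are those of a sorted gate and not of whole lung.

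In the interstitial matrix, collagen fibrils carry the bulk of the load, and small leucine-rich proteoglycans bind along them and set their spacing and diameter. Elastin, laid down on a scaffold of microfibrils, gives the lung its recoil. Adhesive and matricellular glycoproteins link this network to the receptors of cells, and several of them bind growth factors of the TGF-beta family. Fibroblasts are the main source of most of these proteins in the lung.

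The MARS-seq method sequences a short tag close to the 3′ end of a transcript. A value is a normalized count, that is, reads of a gene divided by a size factor of its library, and it is not divided by gene length because each transcript gives a tag at its end. Read totals were 432322 to 1285816 in the DOX libraries and 497637 to 734114 in the PBS libraries. The 10 genes held 9854 of 6303233 reads (0.156%). A single ribosomal RNA gene held 7.91 to 35.3% of the values in DOX, the highest share in DOX replicate 2, and 5.74 to 9.34% in PBS. Of the sorting genes, Pdgfra, the gene that the gate selects for, was at 4.50 ± 3.51 normalized counts in DOX and 4.31 ± 5.22 in PBS (SD, n = 5 and n = 4). Ptprc (CD45), Pecam1 (CD31) and Epcam, which the gate selects against, were at 0 to 7.17, 3.06 to 5.81 and 0 to 3.73 in DOX and at 0 to 2.52, 3.00 to 10.5 and 0 to 5.67 in PBS. Pdgfra was thus no higher than Pecam1, and the gate cannot be checked from these genes. Which strand was counted is not stated in the sources used here. If it was the opposite strand, the values miss most reads of a gene's own transcripts.

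None of the 8 tested genes passed the test between DOX and PBS fibroblasts. The test was limma's, with a trend of variance on the mean, on log2(normalized count + 1). It took in the 2604 genes that reached 10 in no fewer than 4 libraries, and the threshold was 0.05 after Benjamini-Hochberg adjustment. Because 1 is added to each value, fold changes of low genes are understated. Intervals are at 95% and not adjusted. The lowest adjusted p among the 8 genes was 0.820, and 0% of all 2604 genes were called. At an unadjusted p under 0.05 there were 0 of the 8 genes, against 162 of 2604 (6.22%). On the recovered reads of the same 2604 genes, edgeR, DESeq2 and limma-voom also called 0, with 148 (5.68%), 173 (6.64%) and 160 genes (6.14%) at an unadjusted p under 0.05. DESeq2 gave no adjusted p for Dcn, Fn1, Sparc, Eln and Mfap4. The fitted mean was higher in DOX for 4 genes (Dcn, Fbln1, Mgp and Eln) and lower for 4 (Bgn, Fn1, Sparc and Mfap4), beside 49.4% of all genes tested that were higher and 50.6% that were lower. The median log2 fold change was 0.04 for the 8 genes and -0.01 for all genes tested. In 0 of the 10 genes did the DOX and PBS libraries not overlap, against 2.65% of all genes tested.

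Without PBS replicate 4 the picture of the group was different, with 2 genes higher in DOX (Mgp and Eln) and 6 lower, beside 50.3% and 49.7% of the 2447 genes then tested. The median log2 fold change was then -0.20, against 0.00 over all genes, and again 0 of the 8 genes passed, at the adjusted or the unadjusted threshold (0% and 7.93% of all genes tested). In 0 of the 10 genes were the groups apart, against 6.58% of all genes tested.

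**Figure D1:**
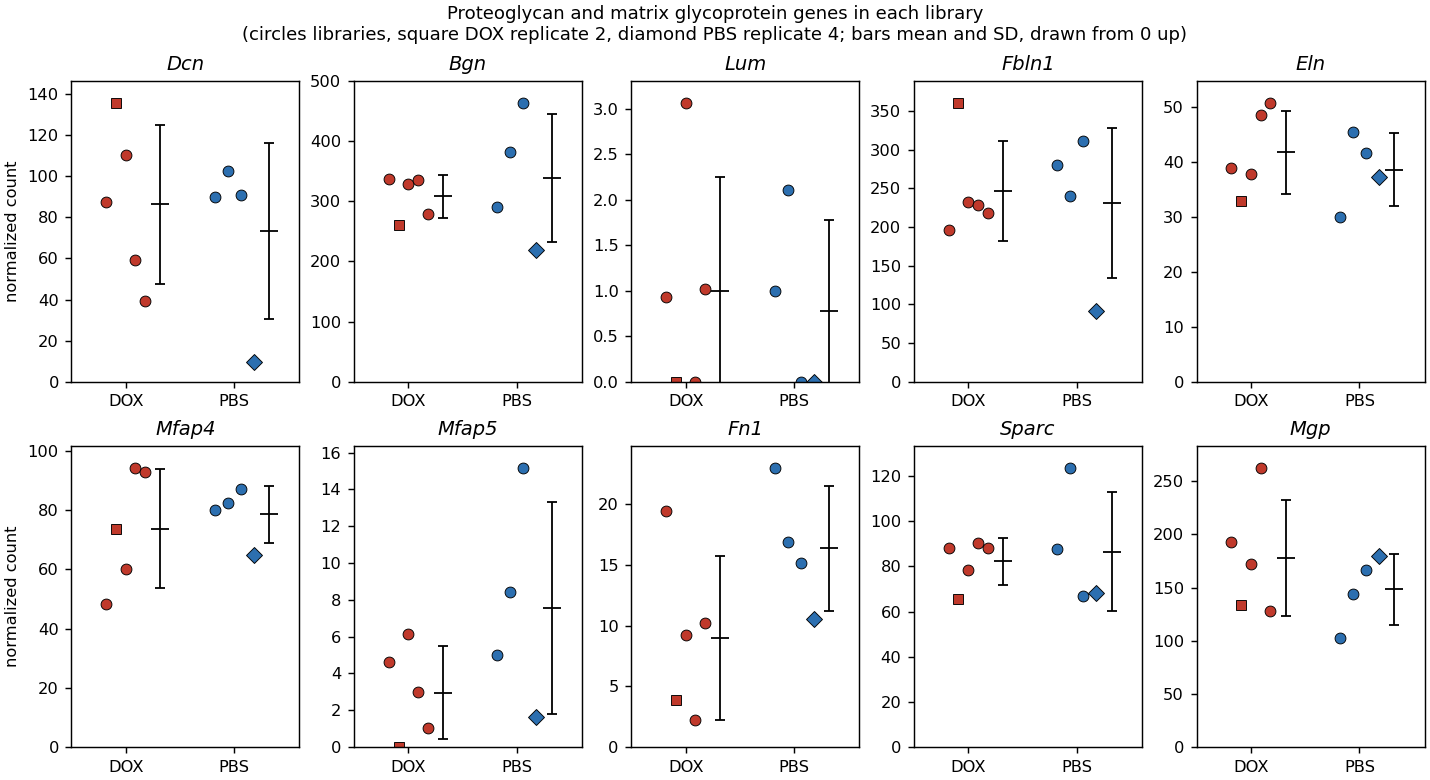
Normalized counts of the 10 genes in each library, with DOX (red) on the left and PBS (blue) on the right of each panel. The square is DOX replicate 2, the diamond is PBS replicate 4, and black bars show the mean and SD, with SDs that reach below 0 cut there. In the Dcn panel PBS replicate 4 stands at 9.72, below the 8 other libraries at 39.4 to 135.

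Among the small leucine-rich proteoglycans of the 10 genes, Bgn and Dcn were high enough to test and Lum was hardly detected. Dcn encodes decorin, which coats collagen fibrils and binds TGF-beta (ENSMUSG00000019929.16, mm10 chromosome 10, 97479609 to 97518143). Dcn was at 87.2, 135, 110.3, 59.0 and 39.4 normalized counts in DOX replicates 1 to 5 and at 89.9, 102, 90.9 and 9.72 in PBS replicates 1 to 4. PBS replicates 1 to 3 lay close together, PBS replicate 4 was far below every other library, and the 5 DOX libraries spread to both sides of the 3 close ones. The means were 86.3 ± 38.5 in DOX and 73.2 ± 42.7 in PBS (SD, n = 5 and n = 4; log2 fold change 0.53, 95% interval -0.72 to 1.79, adjusted p = 0.898 from limma). Without PBS replicate 4 the sign turned, at -0.25 (-1.08 to 0.57, adjusted p = 0.903 from limma), with a PBS mean of 94.4 ± 6.95 over 3 libraries. The coefficient of variation of Dcn was 7.36% among PBS replicates 1 to 3, where the counting of reads alone would give 10.8%, and 44.6% in DOX, where counting would give 11.8%. Over all 4 PBS libraries it was 58.3%, where counting would give 12.2%. The spread of Dcn was thus larger than counting error in both groups, and in PBS it was below that error once replicate 4 was left out.

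Bgn encodes biglycan, the close relative of decorin, which binds collagen and, once released, Toll-like receptors (ENSMUSG00000031375.17, chromosome X, 73483602 to 73495933). It was the highest of the 10 genes, at 337, 261, 329, 335 and 279 normalized counts in DOX replicates 1 to 5 and at 291, 382, 463 and 219.6 in PBS replicates 1 to 4. The DOX libraries lay inside the range of the PBS libraries, whose ends were replicates 3 and 4. The means were 308 ± 35.5 in DOX and 339 ± 106 in PBS (SD, n = 5 and n = 4; log2 fold change -0.09, 95% interval -0.62 to 0.44, adjusted p = 0.977 from limma). With 3105 reads in all, counting alone would give a coefficient of variation of 5.71% in DOX and 5.63% in PBS, and the measured ones were 11.5% and 31.4%. Without PBS replicate 4 the log2 fold change was -0.28 (-0.78 to 0.23).

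Lum encodes lumican, a keratan sulfate proteoglycan that regulates the assembly of collagen fibrils, and it lies beside Dcn (ENSMUSG00000036446.5, chromosome 10, 97565128 to 97572703). Its normalized counts were 0.928, 0, 3.06, 0 and 1.02 in DOX replicates 1 to 5 and 0.999, 2.11, 0 and 0 in PBS replicates 1 to 4. These values come from 9 reads over all libraries, and each group has libraries at 0. Lum was below the level for the fit across genes, and an exact two-sided permutation test of log2(value + 1) over all splits into 5 and 4 gave p = 0.778. A difference of Lum between the groups was not detectable with so few reads.

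The genes of elastic fibers and microfibrils were measured over a wide range of levels, with Fbln1 high and Mfap5 low. Fbln1 encodes fibulin-1, a glycoprotein of elastic fibers and basement membranes that also binds fibronectin (ENSMUSG00000006369.14, chromosome 15, 85205949 to 85286535). It was at 197, 360.0, 232, 228 and 218 normalized counts in DOX replicates 1 to 5 and at 281, 241, 311 and 91.6 in PBS replicates 1 to 4. DOX replicate 2 was the highest of the 9 libraries and PBS replicate 4 the lowest, and the 4 other DOX libraries all lay below the 3 other PBS libraries. The means were 247 ± 64.7 in DOX and 231 ± 97.2 in PBS (SD, n = 5 and n = 4; log2 fold change 0.20, 95% interval -0.51 to 0.92, adjusted p = 0.956 from limma). The log2 fold change was -0.19 without PBS replicate 4 (-0.74 to 0.36) and -0.34 without both PBS replicate 4 and DOX replicate 2 (adjusted p = 0.742 from limma).

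Eln encodes tropoelastin, the soluble precursor that is cross-linked into elastin (ENSMUSG00000029675.12, chromosome 5, 134702593 to 134747323). Its normalized counts were 39.0, 32.9, 37.8, 48.6 and 50.7 in DOX replicates 1 to 5 and 30.0, 45.4, 41.7 and 37.3 in PBS replicates 1 to 4. The groups overlapped over most of their range, and PBS replicate 4 lay in the middle of its group. The means were 41.8 ± 7.55 in DOX and 38.6 ± 6.63 in PBS (SD, n = 5 and n = 4; log2 fold change 0.11, 95% interval -0.62 to 0.85, adjusted p = 0.977 from limma). The coefficients of variation, 18.1% in DOX and 17.2% in PBS, were close to the 15.2% and 16.4% that counting alone would give.

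Mfap4 encodes a microfibril-associated glycoprotein that binds tropoelastin and fibrillin and takes part in the assembly of elastic fibers (ENSMUSG00000042436.12, chromosome 11, 61485431 to 61488900). It was at 48.3, 73.5, 60.3, 94.1 and 92.7 normalized counts in DOX replicates 1 to 5 and at 79.9, 82.3, 87.1 and 64.8 in PBS replicates 1 to 4. The DOX libraries reached both lower and higher than every PBS library. The means were 73.8 ± 20.0 in DOX and 78.5 ± 9.62 in PBS (SD, n = 5 and n = 4; log2 fold change -0.12, 95% interval -0.78 to 0.53, adjusted p = 0.977 from limma). Mfap5 encodes another small protein of microfibrils, MAGP2 (ENSMUSG00000030116.14, chromosome 6, 122505845 to 122529290). Its normalized counts were 4.64, 0, 6.13, 2.99 and 1.02 in DOX replicates 1 to 5 and 4.99, 8.44, 15.1 and 1.62 in PBS replicates 1 to 4. The PBS libraries other than replicate 4 held 3 of the 4 highest values, but the groups overlapped. Mfap5 rested on 44 reads and was below the level for the fit. Its means were 2.96 ± 2.52 in DOX and 7.55 ± 5.78 in PBS (SD, n = 5 and n = 4; exact two-sided permutation test, p = 0.175, and p = 0.0893 without PBS replicate 4).

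**Figure D2:**
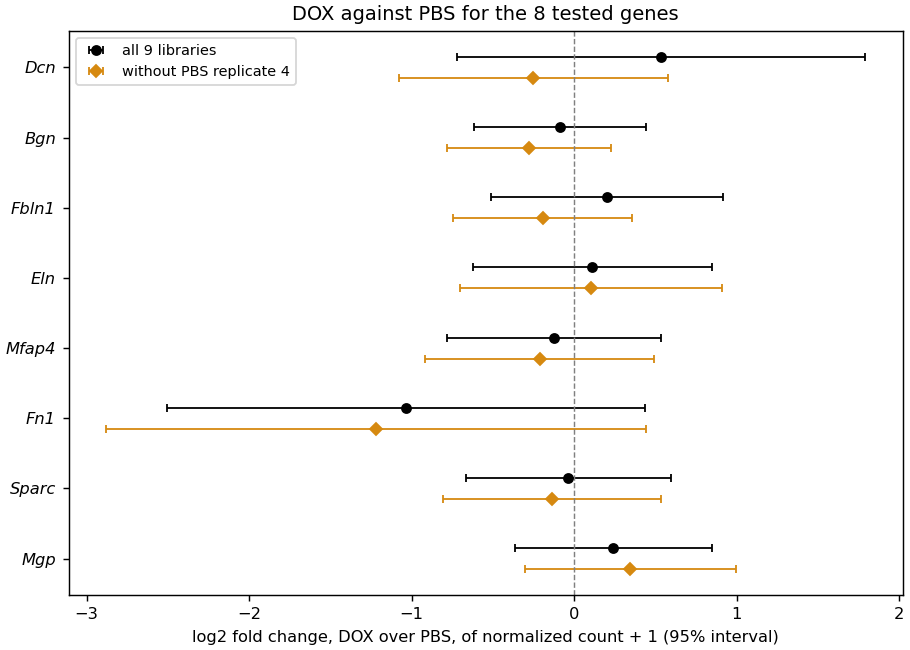
Log2 fold change of DOX over PBS on the scale of normalized count + 1 for the 8 tested genes, with 95% intervals from limma, over all 9 libraries (black circles) and without PBS replicate 4 (orange diamonds). All 16 intervals hold 0, and those of Fn1 and Dcn are the widest over all 9 libraries.

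Among the adhesive and matricellular glycoproteins, Fn1 had the largest fitted difference of the 8 tested genes, but on few reads. Fn1 encodes fibronectin, the ligand through which integrins bind the provisional matrix (ENSMUSG00000026193.15, chromosome 1, 71585520 to 71653200). It was at 19.5, 3.87, 9.19, 2.24 and 10.2 normalized counts in DOX replicates 1 to 5 and at 23.0, 16.9, 15.1 and 10.5 in PBS replicates 1 to 4. Each DOX library other than replicate 1 lay below each PBS library, and DOX replicate 1 lay within the range of PBS. The means were 9.01 ± 6.77 in DOX and 16.4 ± 5.15 in PBS (SD, n = 5 and n = 4; log2 fold change -1.04, 95% interval -2.51 to 0.44, unadjusted p = 0.155 and adjusted p = 0.820 from limma). Fn1 rested on 119 reads over all libraries. Its log2 fold change stayed below 0 under the 20 alternatives run for it, at -1.37 to -0.70. Not all of these are separate checks, since a change of filter alone leaves the fold change as it was. The adjusted p values were 0.750 to 0.942, and DESeq2 gave none for Fn1. The spread of Fn1 in DOX (75.2%) was larger than counting would give (32.1%), and that in PBS (31.4%) was nearer to it (25.2%).

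Sparc encodes a matricellular protein, also called osteonectin, that binds collagen and loosens the adhesion of cells (ENSMUSG00000018593.13, chromosome 11, 55394500 to 55423183). Its normalized counts were 88.2, 65.8, 78.7, 90.4 and 88.1 in DOX replicates 1 to 5 and 87.9, 124, 66.9 and 68.1 in PBS replicates 1 to 4. The DOX libraries all lay between 65.8 and 90.4, and PBS replicate 2 stood above all others. The means were 82.2 ± 10.2 in DOX and 86.6 ± 26.4 in PBS (SD, n = 5 and n = 4; log2 fold change -0.04, 95% interval -0.67 to 0.59, adjusted p = 0.985 from limma). The coefficient of variation of Sparc in DOX, 12.4%, was close to the 10.9% of counting alone.

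Mgp encodes matrix Gla protein, a vitamin K-dependent inhibitor of calcification that also binds BMPs (ENSMUSG00000030218.2, chromosome 6, 136872435 to 136875823). It was at 193, 134, 173, 262 and 128 normalized counts in DOX replicates 1 to 5 and at 103, 144, 167 and 179.9 in PBS replicates 1 to 4. DOX replicate 4 was the highest library and PBS replicate 1 the lowest, with the other 7 mixed between them. The means were 178 ± 54.5 in DOX and 148 ± 33.7 in PBS (SD, n = 5 and n = 4; log2 fold change 0.24, 95% interval -0.37 to 0.85, adjusted p = 0.915 from limma). The log2 fold change of Mgp stayed above 0 under the 21 alternatives run for it, at 0.08 to 0.43, with adjusted p values of 0.742 to 0.983. Here too a change of filter alone could not alter the fold change. Mgp was the only one of the 10 genes for which PBS replicate 4 was the highest PBS library.

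In the order of their mean over the 9 libraries, Bgn (322) came first, followed by Fbln1 (239.7), Mgp (165), Sparc (84.2), Dcn (80.5), Mfap4 (75.9), Eln (40.4), Fn1 (12.3), Mfap5 (5.00) and Lum (0.903). Across libraries the ranges of neighbours in this order overlapped, except those of Eln and Fn1. Within every library, though, Mgp was above Sparc, Mfap4 above Eln and Eln above Fn1. Other neighbours did not keep their order in every library, and the values of Sparc, Dcn and Mfap4 give these 3 genes no order. The 10 genes together held 0.154 ± 0.0209% of the values in DOX and 0.166 ± 0.0388% in PBS (SD, n = 5 and n = 4). The ranges were 0.127 to 0.177% in DOX and 0.115 to 0.200% in PBS, the lowest PBS value being that of replicate 4. With ribosomal RNA genes and mitochondrially encoded genes left out of the sum, the means were 0.186% in DOX and 0.180% in PBS. Over PBS replicates 1 to 3 alone the PBS mean was above that of DOX on both scales, at 0.183% of all values and 0.199% with those genes left out.

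PBS replicate 4 was the lowest PBS library for 6 of the 10 genes and tied at 0 with another for Lum. Its value, divided by the median of PBS replicates 1 to 3, was 0.107 for Dcn, 0.192 for Mfap5, 0.326 for Fbln1, 0.575 for Bgn and 0.624 for Fn1. It was nearer to 1 for Sparc (0.774), Mfap4 (0.787), Eln (0.895) and Mgp (1.25). The low values were thus uneven over genes of the same kind, with decorin lower than biglycan and fibulin-1 lower than elastin. On the scale of log2(value + 1) the median ratio was -0.50 over the 8 tested genes and -0.01 over all genes tested. A ratio under -1 was found in 2 of the 8 genes (Dcn and Fbln1) and in 489 of all 2604 (18.8%). Only 66 genes (2.53%) had a ratio as low as that of Dcn, and 262 (10.1%) had one as low as that of Fbln1.

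Markers of several other cell types stood apart in PBS replicate 4. Summed markers of granulocytes (13 genes, none at 0 in all libraries) were at 1169 normalized counts in PBS replicate 4, against 33.8 to 93.4 in the other 8 libraries. Those of epithelial cells (12 genes, with Lamp3 at 0 throughout) were at 492, against 14.8 to 181. The pan-immune sum (11 genes) was 322, against 29.6 to 100.4, and the red blood cell sum (6 genes) was 81.8, against 0 to 7.17. The sum of 12 fibroblast markers, which hold Col1a1, Col1a2 and Col3a1 but none of the 10 genes, was 1658, against 2384 to 3340. The endothelial sum (12 genes, with Kdr and Emcn at 0 throughout) was 266, against 73.9 to 169. The mammary tumor cell sum (8 genes, with Cldn4 at 0 throughout) was 55.9, against 1.94 to 31.7. Its list shares Krt18 and Epcam with the epithelial list and Lcn2 with the granulocyte list. The remaining sums lay within the range of the other 8 libraries. They were 251 for monocytes and macrophages (205 to 302), 8.91 for lymphocytes (2.11 to 17.6), 207 for smooth muscle cells and pericytes (97.4 to 231) and 0 for mesothelial cells (0 to 6.33). The part of these cells in the low values of Dcn and Fbln1 was not tested. In bulk samples, fewer cells of a type and less RNA per cell cannot be told apart. Among the 8 other libraries the granulocyte and epithelial sums were also higher in DOX than in PBS, at 65.8 to 93.4 in DOX and 33.8 to 36.6 in PBS replicates 1 to 3 for granulocytes, and at 48.3 to 181 and 14.8 to 37.9 for epithelial cells. The pan-immune sum (33.4 to 100.4 in DOX, 29.6 to 55.5 in PBS replicates 1 to 3) and the red blood cell sum (3.06 to 7.17 and 0 to 6.31) overlapped between these groups. So did the fibroblast sum (2384 to 3269 and 3016 to 3340), with 4 of the 5 DOX libraries below the 3 PBS libraries. Col1a1 alone was at 1169 to 1785 in DOX and 1888 to 2333 in PBS replicates 1 to 3. The fibroblast sum is thus not a measure apart from Col1a1. Leaving out PBS replicate 4 therefore does not make the groups alike in the granulocyte and epithelial sums. The part of the marker sums in the fold changes was not tested.

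**Figure D3:**
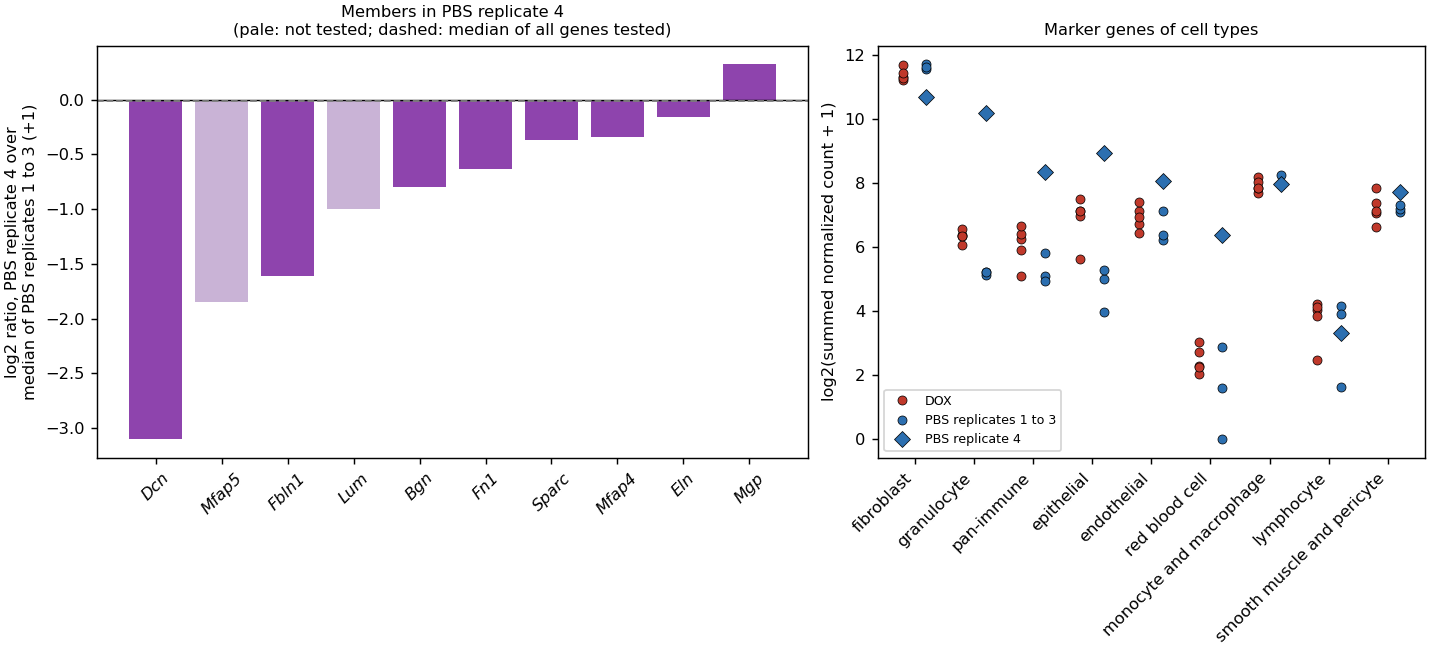
Left, log2 ratio of PBS replicate 4 to the median of PBS replicates 1 to 3 (each with 1 added) for the 10 genes, from Dcn at -3.10 to Mgp at 0.32, with untested genes in pale bars and the median of all genes tested (-0.01) as a dashed line. Right, log2 of summed normalized counts + 1 of marker genes of 9 cell types in each library, DOX in red and PBS in blue, where the diamond of PBS replicate 4 is the highest point for 5 types, the lowest for fibroblasts and inside the range for the other 3.

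Of the 10 genes, 3 overlap an exon of a gene on the opposite strand, and in Mfap4 the overlap is at the 3′ end, where MARS-seq reads its tag. Mfap4 lies on the plus strand and shares its last 89 bases (mm10 chromosome 11, 61488812 to 61488900) with Mapk7 on the minus strand (61488812 to 61494406), which encodes the kinase ERK5. Both genes end there, so their tags fall side by side on opposite strands. The overlaps of Fn1 with Apol7d (292 bases) and of Eln with Gm30003 (267 bases) are at the 5′ ends of Fn1 and Eln, far from their tags.

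Mapk7 was at 297, 159, 219.6, 321 and 284 normalized counts in DOX replicates 1 to 5 and at 342, 361, 389 and 335 in PBS replicates 1 to 4. Every DOX library lay below every PBS library, as did 1.38% of all genes tested. The means were 256 ± 66.1 in DOX and 357 ± 23.98 in PBS (SD, n = 5 and n = 4; log2 fold change -0.52, 95% interval -1.04 to 0.01, unadjusted p = 0.0521 and adjusted p = 0.761 from limma), so that Mapk7 did not pass. Without PBS replicate 4 the log2 fold change was -0.55. Mapk7 was above Mfap4 in all 9 libraries, by 2.16 to 6.15 times in DOX and 4.28 to 5.18 times in PBS. With the strand setting not given, reads of Mfap4 and Mapk7 cannot be assigned with certainty. Apol7d (0 to 9.19 in DOX, 0 to 8.91 in PBS) and Gm30003 (1.54 to 29.9 in DOX, 0 to 44.3 in PBS) were low and varied widely.

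**Figure D4:**
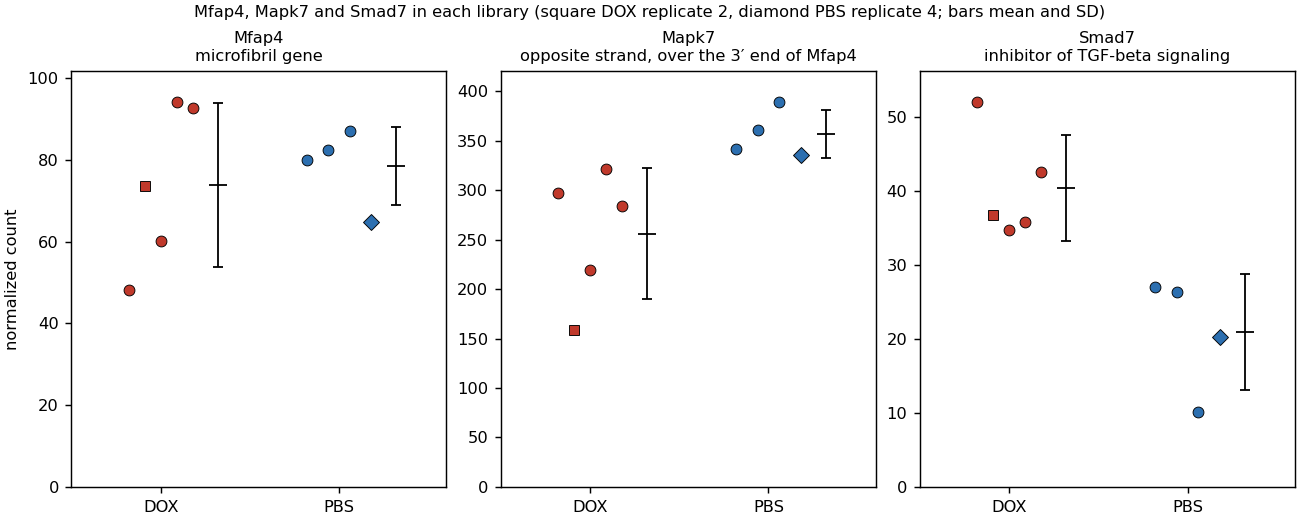
Normalized counts of Mfap4, of Mapk7 on the opposite strand over its 3′ end, and of Smad7 in each library, DOX in red on the left and PBS in blue on the right, with mean and SD as black bars. DOX (159 to 321) lies below PBS (335 to 389) for Mapk7 and above it for Smad7 (34.7 to 52.0 in DOX, 10.1 to 27.0 in PBS), and the groups overlap for Mfap4; none of the 3 genes passed the test.

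The wider families of these genes were read from lists, and 0 genes of any list passed (0% of all genes tested). Of 17 small leucine-rich proteoglycans 5 were tested, 3 with a higher fitted mean in DOX and 2 lower, with a median log2 fold change of 0.28 beside -0.01 over all genes. Without PBS replicate 4 the split was 2 and 3 and the median -0.25. The other tested genes of the list were Prelp, a proteoglycan that binds collagen and basement membranes (25.7 ± 4.61 in DOX and 16.8 ± 12.2 in PBS), Podn (42.5 ± 5.63 and 36.2 ± 13.1) and Tsku, a secreted modulator of BMP and Wnt signaling (134 ± 37.8 and 144 ± 67.8). Their log2 fold changes were 0.91, 0.28 and -0.01, and without PBS replicate 4 they were 0.33 for Prelp, 0.12 for Podn and -0.33 for Tsku. Of 26 other proteoglycans 7 were tested, 5 higher in DOX and 2 lower (median 0.19, and 0.05 without PBS replicate 4). Gpc3, a membrane-anchored heparan sulfate proteoglycan, was at 1088 ± 253 in DOX and 1136 ± 604 in PBS, with 408 in PBS replicate 4 and 892 to 1749 in the other PBS libraries. Its log2 fold change was 0.11, opposite in sign to the difference of the linear means, and without PBS replicate 4 it was -0.32. Sdc4, a syndecan of focal adhesions, was at 836 ± 349.6 in DOX and 591 ± 186 in PBS (log2 fold change 0.48, and 0.23 without PBS replicate 4). Prg4, which encodes lubricin, was at 331 ± 156 in DOX and 443 ± 166 in PBS, and Hspg2, which encodes perlecan, at 55.2 ± 28.6 and 84.9 ± 46.5. All SDs in the account of the lists are over 5 DOX and 4 PBS libraries.

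Of 23 genes of elastic fibers and microfibrils 10 were tested, 5 in each direction (median 0.05, and -0.16 without PBS replicate 4). Ltbp3 encodes a protein that tethers latent TGF-beta to microfibrils, and it was at 881, 855, 992, 1005 and 847 normalized counts in DOX replicates 1 to 5 and at 1109.8, 1058, 1262 and 1146 in PBS replicates 1 to 4. Every DOX library lay below every PBS library, with a log2 fold change of -0.32 (adjusted p = 0.775 from limma). Loxl3, which encodes a lysyl oxidase that cross-links elastin and collagen, was at 702 ± 225 in DOX and 531 ± 66.5 in PBS, and Ltbp1 at 35.3 ± 19.9 and 20.2 ± 15.6. Over all the lists, 20 genes above 0 had an opposite-strand exon within 500 bases of their 3′ end, and for 15 of them (75%) the opposite gene had the higher mean, beside 48.4% of the 2387 such genes in the annotation; this count was chosen after seeing the data.

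Of 37 matricellular and adhesive glycoproteins 12 were tested, 6 in each direction (median 0.06, and -0.39 without PBS replicate 4, with 4 higher in DOX and 8 lower). Tnxb, which encodes the matrix glycoprotein tenascin-X, was at 33.7 ± 7.79 in DOX and 25.2 ± 11.6 in PBS. Ecm1, a secreted matrix protein, was at 21.8 ± 8.13 and 14.3 ± 5.60, Abi3bp at 11.5 ± 3.92 and 7.66 ± 3.13, and Crispld2 at 169.5 ± 41.1 and 195 ± 109. The log2 fold change of Abi3bp was 0.55, and 0.24 without PBS replicate 4, and that of Crispld2 was -0.04, and -0.45 without it. The collagens that these proteins bind were lower in DOX in 6 of the 6 tested (of 8 listed), with a median log2 fold change of -0.35, and -0.73 without PBS replicate 4. Col1a1, which encodes type I collagen, had 1255, 1169, 1340.1, 1451 and 1785 normalized counts in DOX replicates 1 to 5 and 1931, 2333, 1888 and 1027 in PBS replicates 1 to 4 (log2 fold change -0.31, adjusted p = 0.853 from limma). Every DOX library lay below PBS replicates 1 to 3 and above PBS replicate 4. Without that library, when 3.19% of all genes tested had every DOX library below every PBS library, as Col1a1 did, its log2 fold change was -0.56 (adjusted p = 0.442 from limma). Col6a1, a chain of type VI collagen, was at 8.31 ± 5.88 in DOX and 19.0 ± 10.1 in PBS, and Col6a2 at 68.1 ± 31.4 and 91.0 ± 15.5.

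Receptors of matrix glycoproteins had 5 of 21 genes tested, 4 higher in DOX and 1 lower (median 0.38, and 0.34 without PBS replicate 4). Itgb1, the integrin beta chain shared by most fibronectin and collagen receptors, was at 36.9 ± 16.0 in DOX and 23.8 ± 13.3 in PBS. Lrp1, an endocytic receptor that binds decorin and fibronectin among many ligands, was at 178 ± 58.7 and 137 ± 52.9, Cd47, a receptor of thrombospondin, at 182 ± 47.9 and 156 ± 65.7, and Itgb5 at 29.8 ± 26.1 and 33.7 ± 7.22. Cd47 was at 76.2 in PBS replicate 4 and at 140.1 to 233 in the other PBS libraries, and its log2 fold change of 0.28 was -0.03 without that library. Matrix proteases and their inhibitors had 16 of 34 genes tested, 11 higher in DOX and 5 lower (median 0.23), and 8 of 15 higher without PBS replicate 4 (median 0.08). Adamts9, a protease that cleaves proteoglycans such as versican, was at 32.5, 36.8, 35.8, 19.4 and 16.9 normalized counts in DOX replicates 1 to 5 and at 50.9, 11.6, 1.26 and 1.62 in PBS replicates 1 to 4. The highest of the 9 values was a PBS library and the 3 lowest were the other PBS libraries, with a log2 fold change of 1.82 (unadjusted p = 0.0386, adjusted p = 0.761 from limma) and of 1.29 without PBS replicate 4 (unadjusted p = 0.123 from limma). Timp3, a matrix-bound inhibitor of metalloproteinases, was at 42.2 ± 11.5 in DOX and 28.4 ± 9.63 in PBS, Adam17 at 157 ± 37.2 and 117 ± 25.9, and Mmp19 at 432 ± 174 and 334 ± 43.0. The log2 fold change of Timp3 was 0.59, and 0.31 without PBS replicate 4.

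The TGF-beta and BMP pathway, whose ligands are held by decorin, biglycan, the latent TGF-beta binding proteins and Mgp, had 7 of 28 genes tested, 3 higher in DOX and 4 lower (median -0.06). Smad7 encodes the inhibitory SMAD that TGF-beta signaling itself induces. It was at 52.0, 36.8, 34.7, 35.9 and 42.5 normalized counts in DOX replicates 1 to 5 and at 27.0, 26.4, 10.1 and 20.3 in PBS replicates 1 to 4. All 5 DOX values were higher than all 4 PBS values, as in 1.27% of all genes tested. The means were 40.4 ± 7.14 in DOX and 20.9 ± 7.83 in PBS (SD, n = 5 and n = 4; log2 fold change 0.99, standard error 0.42, unadjusted p = 0.0303 and adjusted p = 0.761 from limma), so that Smad7 did not pass. Without PBS replicate 4 the log2 fold change was 1.00. Bmpr2, a type II receptor of BMPs, was at 28.1 ± 18.5 in DOX and 10.3 ± 8.10 in PBS (log2 fold change 1.37, unadjusted p = 0.0612 from limma), and Skil, a SMAD corepressor, at 99.9 ± 37.0 and 132 ± 42.8 (log2 fold change -0.43, and -0.71 without PBS replicate 4).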

How the data were processed

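Fibroblasts sorted from lungs of 5 DOX-treated and 4 PBS-treated mice were profiled by MARS-seq. Per the study's methods, the authors aligned the reads to mm10 (STAR) and obtained a count per gene (HTSeq-count), with no versions stated. The deposited tables, 1 per library, hold a normalized signal: the read count of a gene divided by a library size factor. In each library 100% of values were multiples of the value of 1 read (tolerance 1e-06), and these unit values matched DESeq2's median-of-ratios size factors, so whole reads were recovered. Lines of 119 repeated symbols were summed. Whether reads were collapsed by molecular tags is not given, so counting errors cover the counting of reads only. The labels name the libraries as biological replicates.

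Groups were compared by limma-trend (limma 3.58.1 in R 4.3.3) on log2(value + 1), without covariates. The 2604 genes tested reached 10 in no fewer than 4 libraries, and p-values were adjusted over them by Benjamini-Hochberg at 0.05. Genes below this level were compared by an exact permutation test (Python 3.11.15 with NumPy 2.4.6). edgeR 4.0.16, DESeq2 1.42.0 and limma-voom on recovered reads, array weights, other filters, pseudocounts and scalings, a replicate block and each library left out were alternatives. The fits were tested on simulated data, where DESeq2 made more false calls than limma-trend and edgeR. Coordinates, strands and exon overlaps come from GENCODE M21. The members and the gene lists were chosen with earlier results of these data known, and lists are described without a test. Named genes outside the 10 are, in each list, the 3 tested genes of lowest p and the tested gene of highest mean, besides the sorting genes and the opposite-strand partners. Some genes are not reported here.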

Additional observations from a re-analysis of the deposited data

Results flagged for a closer look

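In the groups of 4 or 5 libraries of the 45 genes named, 13 of 90 groups had a library far from the rest of its group by Dixon's test, where for normally distributed values chance flags about 1 in 20 groups. These groups need not be normal: those of Apol7d and Epcam hold mostly values of 0, and the rate was not measured here. Of the 10 matrix genes, Dcn was at 9.72 in PBS replicate 4, against 89.9 to 102 in the other PBS libraries, and Fbln1 was at 360.0 in DOX replicate 2, against 197 to 232 in the other DOX libraries. PBS replicate 4 also stood apart for Pecam1 (10.5, against 3.00 to 3.79), Epcam (5.67, against 0) and Apol7d (8.91, against 0 to 1.06). In DOX, replicate 5 stood apart for Sdc4 (1444, against 574 to 777) and Podn (32.8, against 42.6 to 46.4), replicate 3 for Apol7d (9.19, against 0) and replicate 4 for Epcam (3.73, against 0 to 1.02). Among the other PBS libraries, replicate 1 stood apart for Ecm1 (5.99, against 16.4 to 17.9) and Itgb5 (23.0, against 35.9 to 38.1), replicate 2 for Col6a2 (114, against 81.9 to 85.9) and replicate 3 for Adam17 (78.3, against 129 to 131).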

How the results depend on the processing

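Over the alternatives, 168 fold changes of the 10 genes were computed, of which 155 kept the direction and 13 reversed it. These are not 168 separate checks. A change of filter alone leaves the fitted fold change of a gene as it was. The replicate block gave the same fold changes as leaving out DOX replicate 5. No adjusted p was under 0.05, and DESeq2 gave no adjusted p for Dcn, Fn1, Sparc, Eln and Mfap4. With single libraries left out, the log2 fold change ranged over -0.25 to 0.84 for Dcn, -0.28 to 0.08 for Bgn, -1.37 to -0.70 for Fn1, -0.15 to 0.15 for Sparc, 0.08 to 0.35 for Mgp, -0.0017 to 0.19 for Eln, -0.19 to 0.39 for Fbln1 and -0.22 to 0.0146 for Mfap4. The number of the 8 genes with a higher mean in DOX ranged over 2 (without PBS replicate 4) to 5, and 0 genes were called in each case. Without both PBS replicate 4 and DOX replicate 2 it was 2, and Dcn was at -0.45 and Fbln1 at -0.34. With array weights Fbln1 was at -0.0132. A fit with no filter and without PBS replicate 4 was chosen after seeing the data. In it Dcn and Fbln1 necessarily kept their values without PBS replicate 4 (-0.25 and -0.19). Lum was at -0.0814 (0.14 with all libraries). With no filter 3 of 17428 genes were called (CT010467.1 and Gm17300 higher in DOX, Gm20721 lower), none of them a matrix gene. With ribosomal RNA and mitochondrial genes left out, the mean share of the 10 genes in DOX was 0.186% in place of 0.154%. The cause of these changes was not tested, other than by which libraries or genes each alternative leaves out.

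The replicate numbers are shared between the groups, but libraries of the same number deviated together only weakly (r = 0.0665, 0.0373, 0.0207 and 0.0623 across genes, which are not independent replicates), and 6 of 8 libraries correlated best with their own number. With the replicate block, which drops DOX replicate 5, 0 of 2450 genes were called and 4 of the 8 genes were higher in DOX. The log2 fold change was 0.78 for Dcn and -1.15 for Fn1, the same as without DOX replicate 5 and without the block. Low read counts limit Lum, Mfap5 and Fn1 most, since these rest on 9, 44 and 119 reads over all libraries. The part of sequencing depth and of the strand counted in these low counts was not tested.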
